A study of Mus musculus and Homo sapiens with 24 samples.

Results

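The comparison described here sets 4 libraries of the human myoblast line LHCN-M2 at day 12 against 4 libraries of the same line at day 0, 8 of the 24 libraries of the series. All genes were eligible, and 18214 of the 58735 gene rows of the human table passed the filter on low counts and were tested. The series followed differentiation of a mouse and a human myoblast line by sequencing of messenger RNA, with 4 libraries per line and day. LHCN-M2 at day 1 entered the fit and is quoted for reference, and the mouse line was not used here. Both groups hold the same cell line with the genotype label control, and the day is the only labelled difference between them. Which medium or trigger started differentiation is not stated in the labels. LHCN-M2 is an established line of skeletal myoblasts that was immortalised with added copies of TERT, the catalytic subunit of telomerase, and of CDK4, a kinase that drives entry into S phase. Both days carry these transgenes. The data therefore describe 1 immortalised line. Nothing in the labels tells whether the 4 libraries of a day came from separate cultures, so p-values reflect library-to-library scatter that may be technical in part or in full. In a culture sequenced in bulk, fewer cells of a type and less RNA per cell cannot be told apart.

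Skeletal muscle forms when proliferating myoblasts leave the cell cycle, switch on a set of basic helix-loop-helix transcription factors led by MYOD1 and myogenin, fuse into multinucleated myotubes and assemble sarcomeres, the contractile units of myosin thick filaments and actin thin filaments. Developing fibres first use embryonic, perinatal and slow forms of the contractile proteins, and adult fast forms come later. Excitation reaches the sarcomere through acetylcholine receptors at the neuromuscular junction, voltage-gated channels and the release of calcium from the sarcoplasmic reticulum.

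Library totals were 37460225 to 43446757 counts at day 0 and 33030258 to 44505597 counts at day 12. The first component of log2 CPM (counts scaled to a common library size with TMM-adjusted totals) held 56.1% of the variance over the 12 libraries of the line and separated day 0 from day 12. A pair of libraries stood apart from their groups on the third component, which held 5.87%: replicate 2 of day 0 lay at -72.5, where the rest of day 0 ran from 19.1 to 29.9, and replicate 1 of day 12 at -22.3, where the rest ran from 4.41 to 9.27. Both differed from their group by gene length. In replicate 2 of day 0, genes under 1 kb stood 0.62 higher on the log2 scale, at the median, than in the other 3 libraries, and genes over 8 kb differed by -0.38. In replicate 1 of day 12 the values were 0.24 and -0.15. Log2 ratios (day 12 over day 0, as throughout) themselves increased with gene length, with a median of -0.40 under 1 kb and 0.12 over 8 kb, and of -0.24 and 0.11 with both libraries left out. Levels below are mean ± SD over 4 libraries, and results are given again without these 2 libraries where they move.

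**Figure D1:**
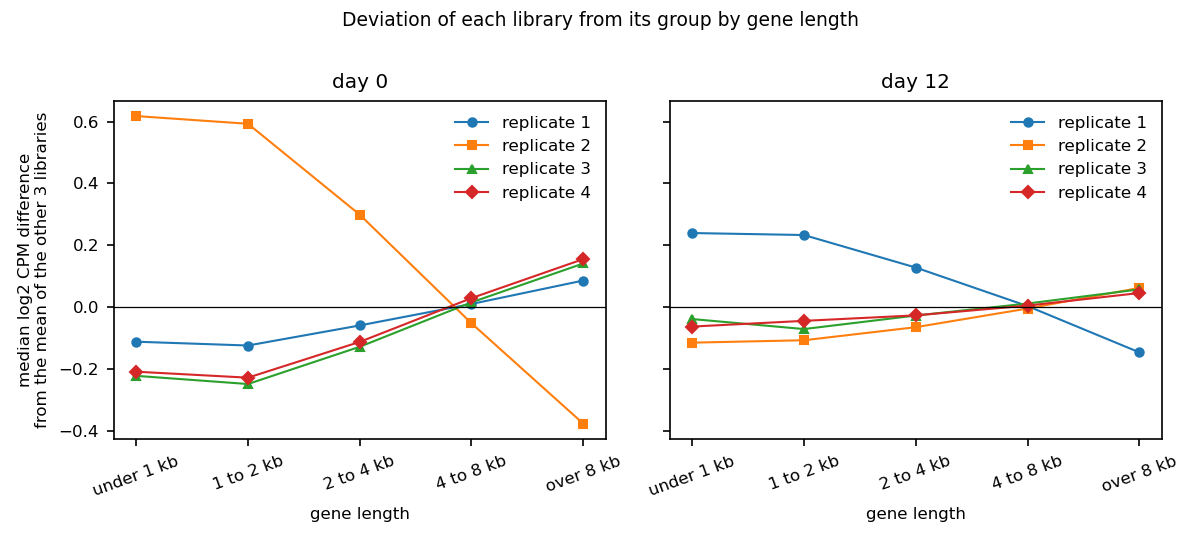
Median difference in log2 CPM between each library and the mean of the other 3 libraries of its day (vertical axis), for genes in 5 classes of length (horizontal axis), day 0 on the left and day 12 on the right. Replicate 2 of day 0 falls from 0.62 to -0.38 and replicate 1 of day 12 from 0.24 to -0.15, while the other libraries lie closer to 0; the lines of a panel mirror each other because each library is compared with the rest of its group.

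Most tested genes, 54.6%, differed between the days. At an adjusted p under 0.05, 4935 genes (27.1%) were higher at day 12 and 5006 (27.5%) lower, and the median log2 ratio of all tested genes was -0.01. A change of at least 2-fold was found for 2638 genes upward (14.5%) and 1779 downward (9.77%). For 4480 genes (24.6%) every day 12 library exceeded every day 0 library, and for 4364 (24.0%) every day 12 library lay below. Of the tested genes, 160 tested genes had 0 counts in all 4 day 0 libraries and more than 3 at day 12, against 9 in the opposite case. Without replicate 2 of day 0 and replicate 1 of day 12, 5468 genes were higher (29.4%) and 5100 lower (27.4%). Of the 9941 genes called in all libraries, 9344 kept their call and direction and 0 were called in the opposite direction.

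**Figure D2:**
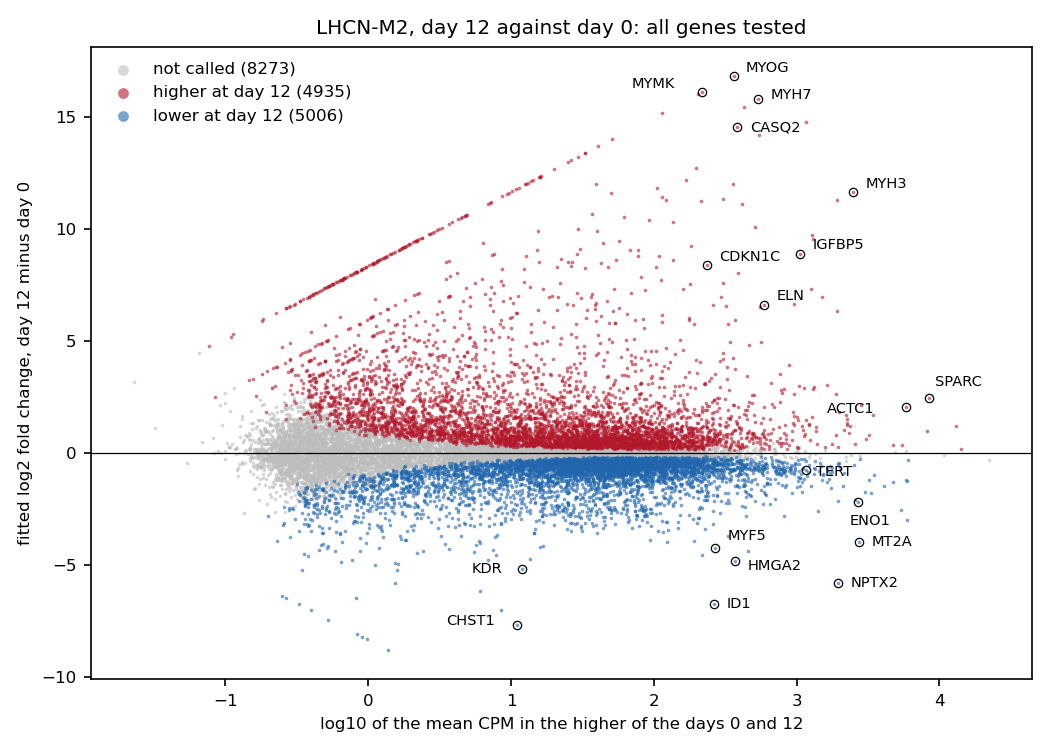
Each point is 1 of the 18214 tested genes, with the log10 of its mean CPM in the day where it was higher on the horizontal axis and the fitted log2 ratio, day 12 over day 0, on the vertical axis. Red and blue points passed an adjusted p of 0.05, grey points did not; the straight upper edge holds genes with 0 counts at day 0, whose fitted value depends on the prior count.

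The libraries carried the markers of skeletal muscle, more so at day 12. At day 0, 4 of 8 muscle markers reached a mean of 1 CPM, namely desmin (DES), MYOD1, MYF5 and titin (TTN), and at day 12 all 8 did. The summed level of these markers was 572 to 763 CPM at day 0 and 5619 to 6772 CPM at day 12. Of these, 7 rose and MYF5 fell. PAX7, which marks resting muscle stem cells, had 0 counts in all 8 libraries, and PAX3 did not pass the test (3.97 CPM at day 0, 4.22 at day 12, log2 ratio 0.09, adjusted p = 0.680). The 6 fibroblast markers all exceeded 1 CPM on both days. Their sum went from 5981 to 6220.2 CPM at day 0 to 13323 to 14298 CPM at day 12, and 5 of 6 rose. COL1A1 made up most of that sum on both days. The 4 immune markers summed to at most 0.921 CPM in any library, and the endothelial gene CDH5 and the adipocyte gene ADIPOQ had 0 counts in all 8. The 4 smooth muscle markers summed to 1.43 to 2.2 CPM at day 0 and 11.2 to 15.8 CPM at day 12. At day 12 nearly all of that sum was LMOD1 (1.07 CPM at day 0, 12.7 at day 12), while MYH11 stayed under 1 CPM (0.470 CPM at day 0, 0.570 at day 12).

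Among the transcription factors of myogenesis, myogenin went from no reads to an abundant transcript, MYOD1, MEF2A, MEF2C and MEF2D rose, and MYF5 fell. MYOG, the factor of terminal differentiation (ENSG00000122180, GRCh38 chr1:203083132-203086036, minus strand), had 0 counts in every day 0 library and stood at 362, 339.6, 378 and 369 CPM at day 12, at least 18896-fold higher against a floor of 3 counts over the day 0 group (adjusted p = 8.02e-14). MYF5, a factor of proliferating myoblasts (chr12:80716912-80719673), stood at 281, 250.0, 278 and 266 CPM at day 0 and 16.8, 14.5, 11.8 and 13.5 CPM at day 12 (log2 ratio -4.24, SE 0.11, adjusted p = 1.25e-13). These 2 genes moved in opposite directions, with no overlap between the days for either. MYOD1, the master regulator of the lineage, was measured at 55.0, 68.7, 49.7 and 48.9 CPM at day 0 and 126, 105, 119 and 118 CPM at day 12 (log2 ratio 1.07, SE 0.11, adjusted p = 7.91e-07). Its day 12 libraries all lay above those of day 0, and its mean at day 1, 261 CPM, was higher than on either day. MEF2C, a partner of the myogenic factors that activates sarcomere genes, was found at 19.4, 15, 21.3 and 21.0 CPM at day 0 and 300.1, 386, 385 and 374 CPM at day 12 (log2 ratio 4.24, SE 0.13, adjusted p = 1.02e-12). All day 12 libraries were far above day 0, and replicate 1 was the lowest of them. MYF6 (MRF4), which marks late differentiation in muscle, was low and fell from 13.5 ± 1.12 CPM to 7.78 ± 1.93 (log2 ratio -0.80, SE 0.16, adjusted p = 0.000505).

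Of 30 myogenic regulators, all tested, 22 rose and 5 fell (median log2 ratio 0.74), against 27.1% and 27.5% of all tested genes. SMYD1, a muscle methyltransferase needed for sarcomere assembly, rose from 0.338 ± 0.230 CPM to 136 ± 11.7 (log2 ratio 8.61), and TEAD4, a TEAD factor of muscle promoters, from 12.7 ± 2.43 CPM to 81.8 ± 3.62 (log2 ratio 2.69). MEF2A (log2 ratio 1.81), MEF2D (log2 ratio 0.46), SIX4 (log2 ratio 0.52), EYA1 (log2 ratio 2.04), PITX3 (log2 ratio 2.36) and the deacetylase HDAC4 (log2 ratio 1.64) also rose. TCF3 (log2 ratio -0.33), which encodes the E protein partners of MYOD1, and HDAC5 (log2 ratio -0.30) fell, as did MYF5 and MYF6.

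The list of inhibitors of myogenesis moved both ways: 8 of 17 tested members rose and 8 fell (median 0.51). Among the 8 that rose the list counts HES6, which promotes differentiation and is not an inhibitor in that sense. The ID proteins bind E proteins and keep MYOD1 from DNA. ID1 (chr20:31605283-31606515) was measured at 227, 403, 226 and 206 CPM at day 0 and 2.86, 2.55, 2.55 and 1.96 CPM at day 12 (log2 ratio -6.74, SE 0.25, adjusted p = 8.82e-12). Every day 12 library was under 3 CPM, and the highest value, in replicate 2 of day 0, came from a library that stood apart; without both, the log2 ratio was -6.53. ID3 fell from 191 ± 35.9 CPM to 12.6 ± 1.80 (log2 ratio -3.92, SE 0.14, adjusted p = 6.82e-12). ID2, of the same family, fell from 72.5 ± 7.75 CPM to 17.1 ± 2.04 (log2 ratio -2.09, adjusted p = 2.14e-10). TWIST1 (log2 ratio -2.30), TWIST2 (log2 ratio -2.21) and SNAI2 (log2 ratio -1.86), factors of mesenchymal progenitors, fell as well. In the other direction, HES6, a Hairy-related factor that promotes differentiation, rose from 3.51 ± 0.625 CPM to 193 ± 12.7 (log2 ratio 5.78, SE 0.15, adjusted p = 1.72e-13). ZEB2 (log2 ratio 2.17), MSC, which encodes musculin (log2 ratio 2.12), and MSTN, which encodes the growth inhibitor myostatin (5.98 CPM at day 0, 34.3 at day 12, log2 ratio 2.52), rose too.

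Genes of muscle stem cells and of the myoblast surface moved in both directions. Of the satellite cell genes, 10 of 19 tested members rose and 4 fell (median 0.63), and 3 of 22, PAX7, CALCR and CHODL, did not pass the filter. The adhesion gene NCAM1 rose from 58.8 ± 6.63 CPM to 884 ± 81.3 (log2 ratio 3.91, adjusted p = 2.08e-13). VCAM1, another adhesion gene, rose from 1.08 ± 0.432 CPM to 28.8 ± 2.94 (log2 ratio 4.72, adjusted p = 4.19e-10). CXCR4, a chemokine receptor, had 0 counts at day 0 and 2.86, 2.98, 3.10 and 2.63 CPM at day 12. MET, the receptor of hepatocyte growth factor, fell from 280.0 ± 57.1 CPM to 127 ± 7.84 (log2 ratio -1.14, adjusted p = 1.37e-06), as did SDC4 (log2 ratio -0.90) and PITX1 (log2 ratio -1.64).

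The genes of the membrane proteins that merge myoblasts rose from 0 or a few CPM. MYMK, which encodes myomaker (ENSG00000187616, chr9:133514586-133528612), had 0 counts in every day 0 library and 222, 206, 231 and 216 CPM at day 12, at least 11399.6-fold higher (adjusted p = 4.23e-13). MYMX, which encodes its partner myomixer, was measured at 1.79, 2.55, 2.04 and 1.26 CPM at day 0 and 45.9, 33.3, 40.5 and 36.6 CPM at day 12 (log2 ratio 4.36, SE 0.19, adjusted p = 3.94e-11). The day 12 libraries lay above all day 0 libraries, and the day 1 mean was 64.2 CPM. Over the whole list of fusion genes, 14 of 29 tested members rose (48.3%) and 8 fell (27.6%), with a median of 0.40. Over all tested genes 27.1% rose and 27.5% fell, so the share that fell was near that of all genes. JAM2 (log2 ratio 3.00), CDON (log2 ratio 2.51), BOC (log2 ratio 1.83) and ELMO1 (log2 ratio 2.81), adhesion and signalling proteins of fusing cells, rose. CDH2, which encodes N-cadherin (log2 ratio -0.58), RAC1 (log2 ratio -0.58) and ANXA5 (log2 ratio -0.66) fell.

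The thick and thin filament lists had the highest medians of the 57 gene lists examined. Together, the 93 genes of the thick filament, thin filament and Z-disc lists took 0.767% ± 0.0447 of the counts of a library at day 0, 1.29% ± 0.0503 at day 1 and 3.54% ± 0.0526 at day 12 (mean ± SD, n = 4). In the thick filament list 27 of 31 tested members rose and 3 fell, with a median log2 ratio of 8.05, or 7.32 when genes without day 0 counts take their lower bound. The thin filament list had 20 of 21 tested members higher and 1 lower (median 7.86, or 7.81 at the bound). Of the Z-disc genes, which anchor thin filaments and titin, 21 of 32 rose and 4 fell (median 1.03).

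The embryonic myosin heavy chain led its family. MYH3 (ENSG00000109063, chr17:10628526-10657309) was measured at 0.352, 0.875, 1.11 and 0.702 CPM at day 0 and 2202, 2588, 2527 and 2666 CPM at day 12 (log2 ratio 11.67, SE 0.26, adjusted p = 4.60e-14). The slow form MYH7 had 1 count over the 4 day 0 libraries and stood at 520.1, 561, 513 and 570.2 CPM at day 12, a ratio of 84436 (95% counting interval 15154 to 3335060.0). MYH8, the perinatal form, was found at 0.108, 0, 0 and 0 CPM at day 0 and 477, 578, 550.4 and 564 CPM at day 12 (adjusted p = 1.73e-14). In these 3 genes day 0 lay at or near 0 and the 4 day 12 libraries stood close together. Per kilobase of gene model, MYH3 held 65.2% of the myosin heavy chain signal at day 12, at 373 ± 30.5 CPM per kb, MYH8 15.7% (89.8 ± 7.43) and MYH7 15.6% (88.9 ± 4.73). The levels of MYH8 and MYH7 differed by less than their SDs. Adult fast forms were low: MYH2 (fast IIa) stood at 15.7 ± 0.525 CPM per kb and MYH1 (fast IIx) at 1.06 ± 0.354, while MYH4 (fast IIb) had 32 counts over the 4 day 12 libraries and did not pass the filter. The myosin genes are close paralogs, and how reads between them were assigned is not given in the sources used here.

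**Figure D3:**
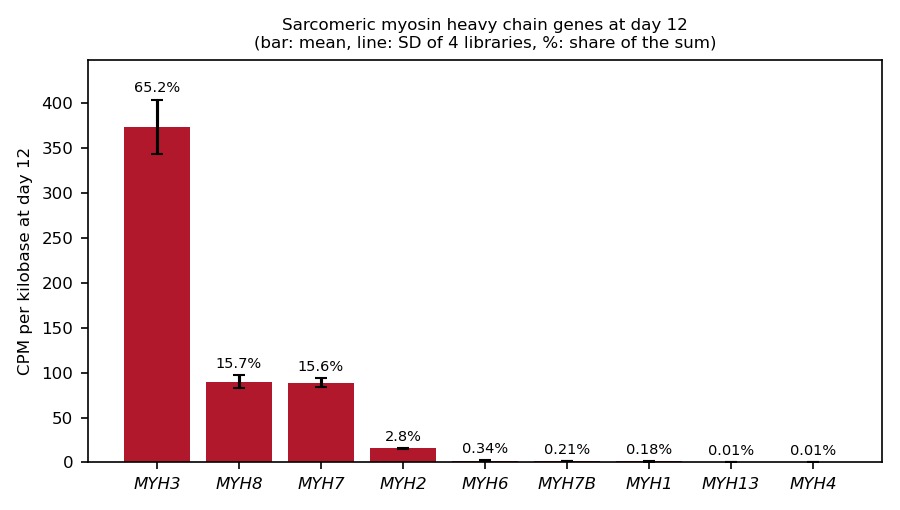
Level of each sarcomeric myosin heavy chain gene at day 12 in CPM per kilobase of gene model (vertical axis; bars start at 0 and show the mean of 4 libraries, black lines the SD), with its share of the family's sum above the bar. The embryonic gene MYH3 holds 65.2%, MYH8 and MYH7 about equal shares, and the adult fast genes under 3% each.

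Myosin light chains and binding proteins followed the heavy chains. MYLPF, the fast regulatory light chain, was measured at 0.108, 0, 0 and 0.0468 CPM at day 0 and 1256, 1073, 1179 and 1171 CPM at day 12 (adjusted p = 1.37e-14), and MYL1, the fast essential light chain, rose from 0.0268 ± 0.0309 CPM to 196 ± 7.74 (adjusted p = 1.56e-14). MYL4, the embryonic and atrial light chain, rose from 0.186 ± 0.109 CPM to 417 ± 20.5 (log2 ratio 11.11, adjusted p = 2.50e-14). MYBPH, a myosin binding protein, rose from 1.45 ± 0.727 CPM to 387 ± 23.0 (log2 ratio 8.05, adjusted p = 3.53e-12). UNC45B, the chaperone that folds myosin heads, had 0 counts at day 0 and 187, 209, 200.4 and 221 CPM at day 12, at least 10633-fold higher (adjusted p = 3.50e-13). The 3 members that fell were MYH15 (11.9 CPM at day 0, 3.50 at day 12), the kinase gene MYLK2 (0.769 CPM at day 0, 0.0263 at day 12) and TRIM55, a titin-binding ubiquitin ligase (427 CPM at day 0, 153 at day 12, log2 ratio -1.48, adjusted p = 3.25e-09).

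Muscle actin transcripts rose and cytoplasmic actin transcripts fell. Cardiac alpha-actin, ACTC1, which developing skeletal muscle also uses, was already abundant in myoblasts and was measured at 1428, 1587, 1237 and 1291 CPM at day 0 and 5892, 5467, 6065 and 5894 CPM at day 12 (log2 ratio 2.07, SE 0.08, adjusted p = 1.18e-11). Skeletal alpha-actin, ACTA1, was measured at 0.108, 0.212, 0.103 and 0 CPM at day 0 and 134, 133, 132 and 142 CPM at day 12 (adjusted p = 6.18e-14). Of the cytoplasmic actins, ACTB fell from 5967 ± 529.9 CPM to 2478 ± 182 (log2 ratio -1.27, adjusted p = 1.21e-09). ACTG1 fell from 4771 ± 560.1 CPM to 1958 ± 113 (log2 ratio -1.29, adjusted p = 2.04e-09). Per kilobase, ACTC1 went from 8.36% to 44.8% of the signal of 6 actin genes, ACTB from 47.2% to 24.9% and ACTG1 from 44.3% to 23.1%. ACTA1 reached 3.21%, and smooth muscle actin, ACTA2, 3.89%. Actin genes are near-identical over their coding sequence and may share reads. Per kilobase of gene model, slow forms held most of the troponin signal at day 12. TNNI1, slow troponin I, was found at 0.595, 0.875, 0.826 and 0.749 CPM at day 0 and 2054, 1818, 1865 and 1937 CPM at day 12 (log2 ratio 11.29, SE 0.16, adjusted p = 6.65e-16), and at day 12 it held 92.6% of the troponin I signal per kilobase against 7.35% for the fast gene TNNI2. TNNC1, the slow and cardiac troponin C, held 82.4% against 17.6% for the fast TNNC2. Among troponin T genes the slow TNNT1 held 61.0%, the cardiac and fetal TNNT2 28.6% and the fast TNNT3 10.4%. The order of TNNT1 and TNNT2 rests on the length of their gene models, 2171 and 7259 bases. In CPM, TNNT2 was the higher at day 12 (1495 against 957 for TNNT1). The only thin filament gene that fell was TPM3, a tropomyosin with cytoplasmic forms (716 CPM at day 0, 414 at day 12, log2 ratio -0.79, adjusted p = 2.37e-08), while TPM2 rose from 1062 ± 449 CPM to 3443 ± 277 (log2 ratio 1.70, adjusted p = 3.40e-06). Nebulin, NEB, rose from 1.51 ± 0.938 CPM to 1281 ± 426 (log2 ratio 9.73, adjusted p = 1.34e-10).

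At the Z-disc, ACTN2, sarcomeric alpha-actinin, had 1 count over the day 0 group and 402, 420.5, 431 and 446 CPM at day 12, a ratio of 66369 (95% counting interval 11912 to 2621490.0). TTN, the giant spring of the sarcomere, was measured at 9.47, 4.03, 9.71 and 8.43 CPM at day 0 and 631, 1566, 1358 and 1459.8 CPM at day 12 (log2 ratio 7.31, SE 0.34, adjusted p = 1.04e-10). Its gene model is the longest of those named here, 118976 bases, and replicate 1 of day 12 was the lowest of its group; without both libraries that stood apart, the log2 ratio was 7.34. LDB3, a Z-disc scaffold, rose from 0.520 ± 0.301 CPM to 112 ± 9.01 (log2 ratio 7.73, adjusted p = 5.80e-13). CSRP3, muscle LIM protein, rose from 0.0709 ± 0.0661 CPM to 26.9 ± 2.46 (log2 ratio 8.51, adjusted p = 1.68e-11). DES, the muscle intermediate filament, rose from 303 ± 91.1 CPM to 1874 ± 121 (log2 ratio 2.63, adjusted p = 1.44e-09). The telethonin gene TCAP (0.968 CPM at day 0, 1.28 at day 12, log2 ratio 0.40, adjusted p = 0.489) and myotilin, MYOT (0.379 CPM at day 0, 0.796 at day 12, log2 ratio 1.07, adjusted p = 0.0619), did not pass the test. BAG3, a chaperone partner, fell (log2 ratio -0.49).

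Genes that couple excitation to contraction rose, most of them from near 0. Of the coupling genes, 17 of 24 tested members rose and 4 fell (median 2.90). RYR1, the calcium release channel (chr19:38433699-38587564), was measured at 0.0811, 0.106, 0.0516 and 0.0936 CPM at day 0 and 275, 397, 371 and 403 CPM at day 12 (log2 ratio 12.03, SE 0.24, adjusted p = 1.73e-14). CACNA1S, the voltage sensor, had 0 counts at day 0 and 92.6, 116, 120.1 and 125 CPM at day 12, at least 5891-fold higher (adjusted p = 2.63e-11). Both genes had no overlap between the days, and replicate 1 was the lowest day 12 library in each. CACNG1, the gamma subunit of the same channel, was at least 2139.9-fold higher (0 counts against a mean of 40.9 CPM), and TRDN, triadin, at least 588-fold higher (0 counts against 11.4 CPM). STAC3, an adaptor of the channel, rose from 3.36 ± 1.37 CPM to 321 ± 21.1 (log2 ratio 6.58, adjusted p = 1.86e-12). JPH2, which ties the reticulum to the tubule, rose from 26.6 ± 3.99 CPM to 228 ± 11.8 (log2 ratio 3.10, adjusted p = 4.25e-12). BIN1, which shapes T-tubules, rose from 123 ± 37.1 CPM to 797 ± 42.8 (log2 ratio 2.69, adjusted p = 1.34e-09). JSRP1 (log2 ratio -0.77), ASPH (log2 ratio -0.93), FKBP1A (log2 ratio -0.51) and the store-operated channel ORAI1 (log2 ratio -0.99) fell.

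In the sarcoplasmic reticulum, 13 of 19 tested genes of calcium pumps and stores rose and 4 fell (median 1.01). CASQ2, the calcium-binding calsequestrin of heart and slow muscle, had 2 counts over the day 0 group and 361, 406, 378 and 395 CPM at day 12, a ratio of 29986 (95% counting interval 8301 to 247607). CASQ1, the fast muscle form, reached 0.809 ± 0.345 CPM. Of the pump genes, ATP2A2, the slow muscle and housekeeping pump, rose from 353 ± 71.7 CPM to 592 ± 37.0 (log2 ratio 0.74, adjusted p = 9.03e-05), and ATP2A1, the fast muscle pump, was measured at 2.30, 2.52, 2.12 and 1.40 CPM at day 0 and 4.09, 5.26, 5.24 and 5.45 CPM at day 12 (log2 ratio 1.27, SE 0.18, adjusted p = 2.59e-05). ATP2A2 held 94.7% of the signal of the 3 pump genes per kilobase at day 12 and 96.1% at day 0. The small pump regulators SLN, sarcolipin, and MRLN, myoregulin, had 0 counts at day 0 and 6.86 ± 1.15 and 29.5 ± 1.73 CPM at day 12. Phospholamban, PLN, did not pass the filter. HRC, a calcium-binding protein of the reticulum, rose from 0.0332 ± 0.0663 CPM to 167 ± 8.18 (adjusted p = 9.62e-13), and calreticulin, CALR, fell from 1432 ± 179 CPM to 818 ± 49.2 (log2 ratio -0.81, adjusted p = 1.12e-06).

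Of 19 neuromuscular junction genes, all tested, 15 rose and 1 fell (median 1.19). The embryonic gamma subunit of the acetylcholine receptor rose and the adult epsilon subunit did not pass the test. CHRNG (chr2:232539727-232546403) was measured at 0.216, 0.0530, 0.207 and 0 CPM at day 0 and 263, 318, 309.8 and 331 CPM at day 12 (log2 ratio 11.33, SE 0.28, adjusted p = 1.23e-13). CHRNE, the epsilon subunit, stood at 0.149 CPM at day 0 and 0.0854 at day 12 (adjusted p = 0.571). CHRNA1, the alpha subunit, was already present in myoblasts, at 447, 561, 455 and 438 CPM at day 0 and 1085, 1059, 1113 and 1095 CPM at day 12 (log2 ratio 1.19, SE 0.08, adjusted p = 1.28e-08). CHRND, the delta subunit, rose from 0.0776 ± 0.0315 CPM to 57.4 ± 5.83 (log2 ratio 9.49, adjusted p = 1.73e-14). The alpha subunit held 56.4% of the receptor signal per kilobase at day 12 and the gamma subunit 29.3%. Acetylcholinesterase, ACHE (log2 ratio 3.46), LRP4, the agrin receptor (log2 ratio 3.12), MUSK, its kinase (log2 ratio 1.14), DOK7 (log2 ratio 1.37) and AGRN, agrin itself (log2 ratio 1.29), rose. ERBB3, a neuregulin receptor, rose from 0.0666 ± 0.100 CPM to 44.4 ± 5.44 (log2 ratio 9.37, adjusted p = 5.36e-12). The gene that fell was ETV4, a transcription factor (25.2 CPM at day 0, 5.05 at day 12, log2 ratio -2.31, adjusted p = 2.83e-07).

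The dystrophin complex links the cytoskeleton to the matrix, and in its list 15 of 24 tested members rose and 4 fell (median 1.14). DMD, dystrophin, was measured at 16.9, 8.89, 16.3 and 15.4 CPM at day 0 and 123, 208, 182 and 191 CPM at day 12 (log2 ratio 3.61, SE 0.20, adjusted p = 6.65e-10), with replicate 1 lowest at day 12 and replicate 2 lowest at day 0. CAV3, muscle caveolin, rose from 14.5 ± 4.34 CPM to 78.6 ± 5.31 (log2 ratio 2.44, adjusted p = 3.23e-09). The laminin chains LAMA5 (log2 ratio 4.07), LAMA4 (log2 ratio 3.38) and LAMA2 (log2 ratio 1.36) rose. Utrophin, UTRN, which precedes dystrophin in development, did not pass the test (112 CPM at day 0, 147 at day 12, log2 ratio 0.40, adjusted p = 0.212). Among ion channel and pump genes of the membrane, 11 of 20 tested members rose and 5 fell (median 0.87). SCN4A, the muscle sodium channel, had 0 counts at day 0 and 43.4, 56.4, 52.0 and 50.9 CPM at day 12, at least 2615-fold higher. The chloride channel CLCN1 did not pass the filter. GJC1 (log2 ratio -1.37) and KCNMA1 (log2 ratio -0.58), a gap junction and a potassium channel gene, fell.

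**Figure D4:**
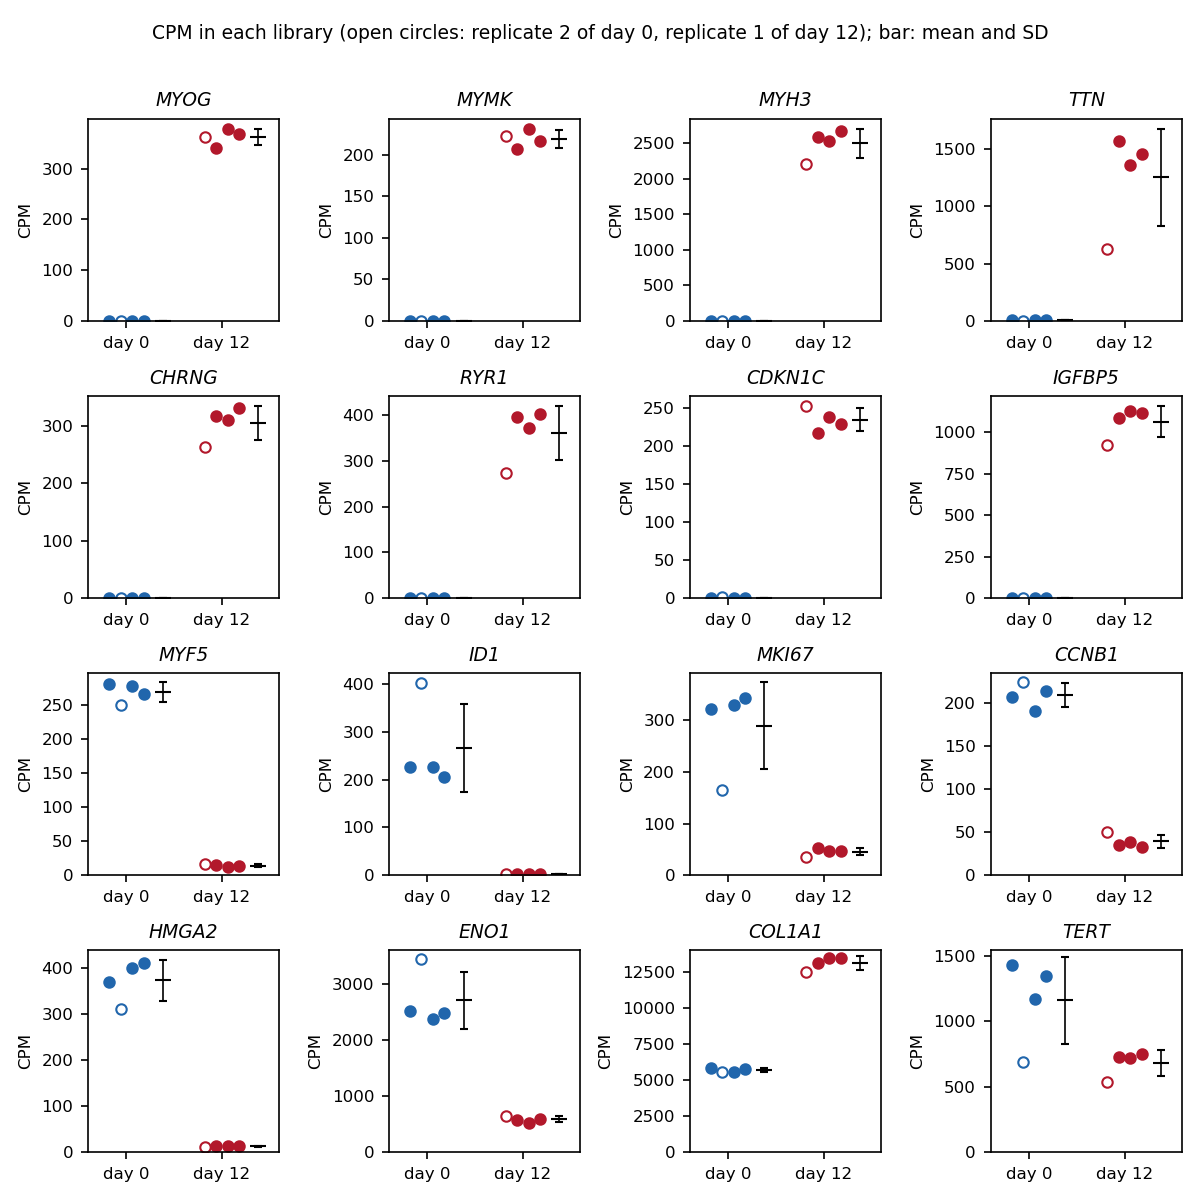
CPM in each of the 4 libraries of day 0 (blue) and day 12 (red) for 16 genes, on linear axes that start at 0; open circles mark replicate 2 of day 0 and replicate 1 of day 12, and the black bar gives the mean and SD. In 15 of the 16 genes the days do not overlap; TERT overlaps because replicate 2 of day 0 lies below 3 of the day 12 libraries.

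Muscle energy genes rose and most glycolysis genes fell. Of 18 tested genes of creatine and muscle energy metabolism 16 rose and 0 fell (median 2.74). CKM, muscle creatine kinase, was measured at 0.270, 0.318, 0.232 and 0.140 CPM at day 0 and 108, 105, 106 and 114 CPM at day 12 (adjusted p = 7.65e-14). The brain form, CKB, rose from 25.9 ± 9.17 CPM to 229 ± 16.6 (log2 ratio 3.14, adjusted p = 2.00e-09) and at day 12 held 56.4% of the creatine kinase signal per kilobase against 43.0% for CKM. GATM, which makes the creatine precursor, rose (0.132 CPM at day 0, 6.47 at day 12, log2 ratio 5.62), and so did PYGM, muscle glycogen phosphorylase (0.178 CPM at day 0, 2.63 at day 12, log2 ratio 3.86). AMPD1, muscle AMP deaminase, had 0 counts at day 0 and 4.57, 4.57, 4.63 and 5.18 CPM at day 12. Myoglobin, MB, remained under the filter, with a mean of 0.249 CPM at day 12 and 0 counts at day 0.

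In the glycolysis list 3 of 24 tested genes rose and 19 fell (median -1.17), and the share of counts held by the list went from 2.01% ± 0.192 to 0.743% ± 0.0406. ENO1, the general enolase, was measured at 2521, 3458, 2375 and 2488 CPM at day 0 and 654, 576, 532 and 599.8 CPM at day 12 (log2 ratio -2.20, SE 0.11, adjusted p = 2.48e-10). Every day 12 library lay far below day 0, and the highest value came from replicate 2 of day 0. LDHA, lactate dehydrogenase A, fell from 2555 ± 200.1 CPM to 587 ± 43.7 (log2 ratio -2.12, adjusted p = 4.21e-12). GAPDH, of the middle of the pathway, fell from 4109 ± 479 CPM to 1475 ± 75.7 (log2 ratio -1.48, adjusted p = 3.51e-10). SLC16A3, which exports lactate, fell from 585 ± 39.0 CPM to 119 ± 10.2 (log2 ratio -2.30, adjusted p = 7.48e-12). PDK1, which inhibits the pyruvate dehydrogenase complex, fell from 49.5 ± 6.03 CPM to 14.9 ± 1.24 (log2 ratio -1.73, adjusted p = 7.07e-09). ENO3, muscle enolase, rose from 9.18 ± 2.91 CPM to 115 ± 8.71 (log2 ratio 3.65, adjusted p = 1.50e-10) and took 18.3% of the enolase signal per kilobase at day 12 against 0.393% at day 0. PFKM (log2 ratio 0.59), SLC2A4, the insulin-regulated glucose transporter (0 CPM at day 0, 0.653 at day 12), and PDK4 (0.127 CPM at day 0, 4.14 at day 12) were the 3 genes of the list that rose. At day 1 the list's share stood at 0.928% ± 0.0131, and ENO1 at 758 CPM.

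Of 47 nuclear genes of oxidative phosphorylation 5 rose and 14 fell (median -0.22). The share that fell, 29.8%, lay near the 27.5% of all tested genes. NDUFS8 (log2 ratio -0.86, adjusted p = 0.00944) and COX8A (log2 ratio -0.98, adjusted p = 2.00e-05) were among those that fell. These counts moved with replicate 2 of day 0, in which the list stood 0.63 above the other day 0 libraries at the median: without that library 10 rose, 9 fell and the median was 0.03. Leaving out replicate 2, 3 or 4 of day 12 left 8, 9 and 9 lower. COX6A2, the muscle form of a cytochrome oxidase subunit, had 0 counts at day 0 and 10.7, 6.76, 9.53 and 7.63 CPM at day 12. Of the 13 protein-coding genes of the mitochondrial genome 9 rose and 0 fell (median 0.40). At the median these genes differed by -0.56 on the log2 scale between replicate 2 of day 0 and the other day 0 libraries. Without both libraries that stood apart 10 rose, 0 fell and the median was 0.31. MT-ND6 was measured at 546, 461, 592 and 590.2 CPM at day 0 and 1214, 1039, 1098 and 1067 CPM at day 12 (log2 ratio 1.01, SE 0.08, adjusted p = 6.85e-08). MT-CYB was measured at 2189.7, 1385, 2298 and 2051 CPM at day 0 and 3157, 2829, 3324 and 2966 CPM at day 12 (log2 ratio 0.63, SE 0.12, adjusted p = 0.000445), and neither gene overlapped between the days. The whole mitochondrial genome took 3.98% ± 0.333 of counts at day 0 and 4.98% ± 0.249 at day 12. In the citric acid cycle list 6 of 20 tested members rose and 10 fell (median -0.30), with IDH2 (54.7 CPM at day 0, 134 at day 12, log2 ratio 1.29) and pyruvate carboxylase, PC (11.4 CPM at day 0, 48.5 at day 12, log2 ratio 2.09), upward and SUCLG2 (106 CPM at day 0, 46.4 at day 12, log2 ratio -1.19) downward. For fatty acid handling 11 of 27 tested members rose and 5 fell (median 0.22). The fatty acid transporter CD36 rose from 1.37 ± 0.486 CPM to 41.9 ± 0.758 (log2 ratio 4.94, adjusted p = 3.46e-11). The muscle binding protein FABP3 rose from 6.47 ± 1.48 CPM to 141 ± 8.30 (log2 ratio 4.44, adjusted p = 7.95e-13), while FABP5 (16.4 CPM at day 0, 2.34 at day 12, log2 ratio -2.80) and FABP4 (1.54 CPM at day 0, 0.0229 at day 12), forms of skin and fat cells, fell. Of 18 tested mitochondrial regulators 3 rose (16.7%, or 5 genes without replicate 4 of day 0) and 3 fell (16.7%). Both shares lay below the 27.1% and 27.5% of all tested genes. The median was -0.03 and changed sign in several alternatives. Members that rose included the coactivator PPARGC1A (0.839 CPM at day 0, 3.23 at day 12, log2 ratio 1.94). TFAM, which packages mitochondrial DNA, was among those that fell (log2 ratio -0.72).

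Genes of the dividing cell fell almost without exception. Of 44 mitosis genes 43 fell and 0 rose (median -2.50), PRC1 being the member not called (log2 ratio -1.24, adjusted p = 0.0901), and of 46 DNA replication genes 45 fell and 1, RPA2, rose (median -2.20). The share of counts held by the mitosis list went from 0.436% ± 0.0357 to 0.0926% ± 0.00753. MKI67, the proliferation antigen, was measured at 322, 164, 329 and 343 CPM at day 0 and 35.6, 52.3, 47.2 and 47.0 CPM at day 12 (log2 ratio -2.67, SE 0.20, adjusted p = 2.00e-08). No day 12 library reached the lowest day 0 value, which belonged to replicate 2; MKI67 has a gene model of 12807 bases. CCNB1, the mitotic cyclin, was found at 208, 225, 191 and 215 CPM at day 0 and 50.7, 35.5, 39.0 and 33.0 CPM at day 12 (log2 ratio -2.41, SE 0.12, adjusted p = 1.48e-10). The day 12 means were not the lowest of the 3 days. At day 1, which is compared with the same day 0 libraries, MKI67 stood at 20.5 CPM and CCNB1 at 21.3 CPM, and the mitosis list held 0.0555% ± 0.00392 of counts. Deep falls in these lists were those of AURKB, a kinase of chromosome segregation (39.7 CPM at day 0, 3.36 at day 12, log2 ratio -3.56), RRM2, which makes deoxynucleotides (106 CPM at day 0, 9.53 at day 12, log2 ratio -3.48), CDC20, an activator of the anaphase-promoting complex (125 CPM at day 0, 11.4 at day 12, log2 ratio -3.45), and ORC1, which binds replication origins (14.7 CPM at day 0, 1.39 at day 12, log2 ratio -3.41).

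Several brakes of the cell cycle rose. CDKN1C, which encodes the inhibitor p57 (chr11:2883213-2885773), was measured at 0.568, 0.955, 0.671 and 0.562 CPM at day 0 and 253, 217, 238 and 229 CPM at day 12 (log2 ratio 8.41, SE 0.17, adjusted p = 1.67e-14), with all day 12 libraries far above day 0. CDKN1A, which encodes p21, was found at 897, 1004, 839.9 and 831 CPM at day 0 and 2298, 2164, 2221 and 2331 CPM at day 12 (log2 ratio 1.34, SE 0.07, adjusted p = 3.68e-10). CDKN2B, which encodes p15, stood at 39.4, 35.8, 37.1 and 39.8 CPM at day 0 and 305, 288, 286 and 287 CPM at day 12 (log2 ratio 2.94, SE 0.07, adjusted p = 1.32e-13). Neither gene overlapped. In the list of inhibitors, pocket proteins and G1 regulators 11 of 26 tested members rose (42.3%) and 9 fell (34.6%). Over all tested genes these shares were 27.1% and 27.5%. The list's median was 0.07. Without both libraries that stood apart it was -0.0033, and 10 members fell. GADD45G (0.0530 CPM at day 0, 30.3 at day 12), BTG1 (log2 ratio 1.97) and CCND2 (log2 ratio 1.06) rose. RBL1, a pocket protein (log2 ratio -1.88), CDKN2C (log2 ratio -1.42), CCND1 (log2 ratio -1.16) and CCND3 (log2 ratio -1.13) fell. RB1, the retinoblastoma gene, did not pass the test (81.1 CPM at day 0, 87.1 at day 12, log2 ratio 0.10, adjusted p = 0.615), nor did CDKN1B, which encodes p27 (23.9 CPM at day 0, 27.7 at day 12, log2 ratio 0.22, adjusted p = 0.0621).

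Reads of the immortalising transgenes and of the cells' own copies cannot be told apart. TERT stood at 1434, 688, 1173 and 1348 CPM at day 0 and 535, 726, 719.9 and 751 CPM at day 12 (log2 ratio -0.77, SE 0.17, adjusted p = 0.00158). The days overlapped, since replicate 2 of day 0 lay below 3 of the day 12 libraries, and the means at days 0, 1 and 12 were 1161, 528 and 683 CPM. CDK4 stood at 95, 107, 80.4 and 94.5 CPM at day 0 and 71.9, 63.0, 56.9 and 68.2 CPM at day 12 (log2 ratio -0.54, SE 0.10, adjusted p = 0.000274), with no overlap. CDKN2A, which encodes the CDK4 inhibitor p16, stood at 269, 463, 266 and 295 CPM at day 0 and 288, 241, 229 and 256 CPM at day 12 and did not pass the test (log2 ratio -0.35, SE 0.15, adjusted p = 0.0604); without the 2 libraries that stood apart it did (log2 ratio -0.17, adjusted p = 0.0304). Genes of the growth state fell in 10 of 12 tested members, 0 rose and the median was -0.85. HMGA2, a chromatin protein of embryonic and dividing cells, was measured at 370.2, 312, 400.3 and 410.4 CPM at day 0 and 11.5, 12.9, 13.0 and 14.5 CPM at day 12 (log2 ratio -4.85, SE 0.12, adjusted p = 1.28e-13). HMGA1 fell from 810.4 ± 120.1 CPM to 114 ± 6.41 (log2 ratio -2.83, adjusted p = 5.63e-12). MYC (log2 ratio -1.21) and the nucleolar gene FBL, fibrillarin (log2 ratio -1.75), fell too. Of the replication-dependent histone genes, whose normal transcripts lack a poly-A tail, 6 of 8 tested rose and 1 fell (median 1.85), for example HIST1H2AC (23.0 CPM at day 0, 109 at day 12, log2 ratio 2.24) and HIST2H2BE (9.53 CPM at day 0, 42.5 at day 12, log2 ratio 2.15). The gene that fell, HIST2H2AC, was not called without replicate 2 of day 0 or without replicate 3 of day 12. The nuclear lamins LMNB1 (95.8 CPM at day 0, 9.83 at day 12, log2 ratio -3.28) and LMNB2 (322 CPM at day 0, 68.1 at day 12, log2 ratio -2.24) and the filament gene VIM, vimentin (3307 CPM at day 0, 954 at day 12, log2 ratio -1.79), fell as DES rose.

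Collagen transcripts rose widely. In the collagen list 21 of 26 tested members rose and 3 fell (median 1.34), and its share of counts went from 1.40% ± 0.0527 to 3.13% ± 0.0565. COL1A1, the main chain of type I collagen, was measured at 5828, 5600.0, 5598 and 5768 CPM at day 0 and 12457, 13084, 13436 and 13476 CPM at day 12 (log2 ratio 1.20, SE 0.07, adjusted p = 7.94e-10). Both groups were tight and did not overlap. COL3A1 rose from 639.8 ± 36.1 CPM to 2819 ± 87.9 (log2 ratio 2.14, adjusted p = 6.47e-13). COL5A3, a minor fibrillar chain, rose from 0.558 ± 0.232 CPM to 86.8 ± 8.65 (log2 ratio 7.29, adjusted p = 5.67e-12). COL19A1, a chain of the class that binds to fibrils, rose from 0.130 ± 0.103 CPM to 54.5 ± 12.5 (log2 ratio 8.64, adjusted p = 4.91e-11). COL14A1, of the same class, rose from 3.68 ± 1.30 CPM to 86.3 ± 5.70 (log2 ratio 4.55, adjusted p = 1.13e-11). COL8A1 (log2 ratio -0.44), COL13A1 (log2 ratio -1.35) and COL27A1 (log2 ratio -1.94) fell. SPARC, a collagen-binding matrix protein, was found at 1591, 1581, 1516 and 1511 CPM at day 0 and 8601, 8273, 8433 and 8532 CPM at day 12 (log2 ratio 2.45, SE 0.06, adjusted p = 5.92e-14). ELN, elastin, was found at 6.22, 7.37, 5.40 and 4.91 CPM at day 0 and 566, 572, 605 and 631 CPM at day 12 (log2 ratio 6.64, SE 0.14, adjusted p = 2.28e-14). Both rose in all day 12 libraries beyond every day 0 library. The proteoglycan genes LUM, lumican (10.9 CPM at day 0, 339.8 at day 12, log2 ratio 4.97), and DCN, decorin (54.4 CPM at day 0, 236 at day 12, log2 ratio 2.12), which are also fibroblast markers, rose, and another fibroblast marker, THY1, fell (199.5 CPM at day 0, 61.5 at day 12, log2 ratio -1.70). The sum of the 6 fibroblast markers, which include COL1A1, LUM and DCN, moved with the collagens (5981 to 6220.2 CPM at day 0 and 13323 to 14298 at day 12), and its part in these rises was not tested.

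Among matrix proteins and proteoglycans 16 of 36 tested members rose and 13 fell (median 0.11). HAS2, which makes hyaluronan, was measured at 343, 272, 356 and 349 CPM at day 0 and 27.3, 25.4, 24.7 and 23.2 CPM at day 12 (log2 ratio -3.71, SE 0.10, adjusted p = 2.08e-13). Its receptor CD44 fell from 824 ± 24.7 CPM to 288 ± 12.4 (log2 ratio -1.52, adjusted p = 3.50e-11). TGFBI, a secreted adhesion protein, fell from 5356 ± 432 CPM to 916 ± 20.8 (log2 ratio -2.55, adjusted p = 1.74e-13). Fibronectin, FN1, a major matrix glycoprotein, stood at 23767, 14607, 25137 and 25868 CPM at day 0 and 13764, 18998, 19485 and 19142 CPM at day 12 and did not pass the test (log2 ratio -0.32, SE 0.15, adjusted p = 0.0778); the lowest value of each day came from the library that stood apart, and without both it fell by 0.35 on the log2 scale (adjusted p = 1.41e-09). Among proteases and their inhibitors 11 of 28 tested members rose (39.3%) and 12 fell (42.9%), against 27.1% and 27.5% of all tested genes (median -0.14). MMP11, a stromelysin, rose from 6.05 ± 1.01 CPM to 330.0 ± 19.4 (log2 ratio 5.77, adjusted p = 2.28e-14). The gelatinase MMP2 rose from 1039 ± 37.6 CPM to 2382 ± 66.5 (log2 ratio 1.20, adjusted p = 8.39e-11). In the plasminogen system, the activator PLAU fell from 926 ± 109 CPM to 268 ± 24.8 (log2 ratio -1.79, adjusted p = 2.72e-10). PLAUR, its receptor, fell from 104 ± 21.5 CPM to 15.6 ± 1.77 (log2 ratio -2.74, adjusted p = 1.86e-10). PLAT, the tissue activator, fell from 601 ± 20.7 CPM to 168 ± 9.37 (log2 ratio -1.84, adjusted p = 3.10e-11).

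Insulin-like growth factor signalling, which drives muscle growth, had its 3 largest changes in binding proteins. Of the list, 10 of 16 tested members rose and 4 fell (median 0.66). IGFBP5 was measured at 2.43, 0.849, 2.61 and 2.90 CPM at day 0 and 924, 1088, 1128 and 1118 CPM at day 12 (log2 ratio 8.91, SE 0.27, adjusted p = 8.52e-13). IGFBP3 rose from 112 ± 10.4 CPM to 781 ± 33.0 (log2 ratio 2.81, adjusted p = 3.17e-13). IGFBP1 rose from 1.16 ± 0.482 CPM to 6.85 ± 1.06 (log2 ratio 2.55, adjusted p = 1.45e-05). IGF2, the ligand, was found at 14.3, 6.29, 17.2 and 18.1 CPM at day 0 and 25.8, 50.9, 60.8 and 54.0 CPM at day 12 (log2 ratio 1.78, SE 0.30, adjusted p = 0.000135). The imprinted RNA H19 beside it rose from 57.5 ± 8.54 CPM to 219 ± 33.4 (log2 ratio 1.93, adjusted p = 5.69e-09). IGF1 did not pass the filter. Of the receptors, INSR rose (log2 ratio 0.93) and IGF1R did not pass the test (log2 ratio -0.12, adjusted p = 0.468); the adaptor IRS2 fell from 229 ± 25.1 CPM to 59.9 ± 3.94 (log2 ratio -1.94, adjusted p = 6.57e-11).

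Notch genes rose more often than they fell, with 9 and 1 of 15 tested, or 2 lower without replicate 2 of day 0 (median 0.80). NOTCH3, a receptor, rose from 9.45 ± 2.08 CPM to 79.7 ± 12.8 (log2 ratio 3.07, adjusted p = 1.13e-09). JAG2, a ligand, rose from 0.729 ± 0.326 CPM to 15.1 ± 1.18 (log2 ratio 4.37, adjusted p = 6.65e-10). The target HES1 rose from 0.218 ± 0.188 CPM to 4.94 ± 0.553 (log2 ratio 4.51, adjusted p = 7.60e-07). RBPJ, the DNA-binding partner, fell (log2 ratio -0.78). In the TGF-beta and BMP list 13 of 28 tested members rose and 10 fell (median 0.27). The BMP antagonists went opposite ways: NOG, noggin, fell from 94.5 ± 12.1 CPM to 6.43 ± 0.861 (log2 ratio -3.87, adjusted p = 1.29e-12). CHRD, chordin, rose from 0.140 ± 0.188 CPM to 18.5 ± 1.45 (log2 ratio 6.96, adjusted p = 9.68e-09). The ligand TGFB3 rose from 1.63 ± 0.317 CPM to 18.8 ± 0.627 (log2 ratio 3.52, adjusted p = 3.67e-11), and the receptor TGFBR2 (log2 ratio -1.48) and the pathway's inhibitory SMAD6 (log2 ratio -1.74) and SMAD7 (log2 ratio -0.91) fell. For WNT genes 11 of 27 tested members rose (40.7%) and 8 fell (29.6%), against 27.1% and 27.5% of all tested genes (median 0.10). The ligand WNT5A fell (437 CPM at day 0, 164 at day 12, log2 ratio -1.41). WNT5B, another ligand, fell (132 CPM at day 0, 39.2 at day 12, log2 ratio -1.75). The antagonist DKK1 also fell (147 CPM at day 0, 17.5 at day 12, log2 ratio -3.07). WNT9A (9.08 CPM at day 0, 32.5 at day 12, log2 ratio 1.84) and the co-receptor LRP5 (log2 ratio 1.88) rose. The antagonist SFRP4 rose too (0.271 CPM at day 0, 27.0 at day 12, log2 ratio 6.60).

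Of 28 receptor tyrosine kinases 12 rose and 10 fell (median 0.57). PDGFRB, a platelet-derived growth factor receptor, rose from 25.3 ± 3.26 CPM to 153 ± 14.6 (log2 ratio 2.59, adjusted p = 2.91e-11). FGFR4, the fibroblast growth factor receptor of myoblasts, rose from 8.38 ± 1.37 CPM to 27.2 ± 0.962 (log2 ratio 1.70, adjusted p = 1.20e-08). EGFR (271 CPM at day 0, 130.4 at day 12, log2 ratio -1.05), AXL (476 CPM at day 0, 125 at day 12, log2 ratio -1.93) and EPHA2 (139 CPM at day 0, 43.1 at day 12, log2 ratio -1.69) fell. Of 20 YAP and TEAD genes 11 rose and 5 fell (median 0.43). ANKRD1, a stretch-responsive target that also sits in the sarcomere, rose from 371 ± 31.9 CPM to 1030.1 ± 12.2 (log2 ratio 1.47, adjusted p = 1.43e-10). The cofactor VGLL2 rose from 1.66 ± 0.203 CPM to 51.2 ± 2.26 (log2 ratio 4.94, adjusted p = 2.53e-14), while NT5E fell from 1414 ± 134 CPM to 238 ± 9.43 (log2 ratio -2.57, adjusted p = 1.33e-12) and the coactivator YAP1 fell (log2 ratio -0.49). Of the factors that muscle secretes, 9 of 17 tested rose and 4 fell. FNDC5, the precursor of irisin, was measured at 2.16, 3.24, 1.99 and 2.01 CPM at day 0 and 283, 296, 295 and 313 CPM at day 12 (log2 ratio 6.98, SE 0.16, adjusted p = 4.60e-14), with all day 12 libraries far above day 0. VEGFA (440.1 CPM at day 0, 112 at day 12, log2 ratio -1.97) and ANGPTL4 (124 CPM at day 0, 7.94 at day 12, log2 ratio -3.97) fell.

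Ribosomal protein genes fell together: 45 of 48 fell and 0 rose (median -0.66), and their share of counts went from 3.33% ± 0.946 to 2.17% ± 0.221. In replicate 2 of day 0 these short genes stood 0.73 above the other day 0 libraries at the median, and in replicate 1 of day 12 0.27 above; without both libraries 45 fell and the median was -0.44. RPL8 was measured at 959, 1569, 798 and 869.8 CPM at day 0 and 576, 475, 438 and 469 CPM at day 12 (log2 ratio -1.10, SE 0.17, adjusted p = 5.54e-05). EEF1A1, the elongation factor, did not pass the test (10754 ± 811 CPM and 10257 ± 699 at days 0 and 12, adjusted p = 0.391). Of 36 proteasome genes 17 fell and 1 rose (median -0.28, 0 to 2 higher when single libraries were left out). Proteasome genes stood 0.59 above the other day 0 libraries in replicate 2 of day 0, at the median. In replicate 1 of day 12 they stood 0.18 above the rest of that day. Without both libraries 15 fell, 2 rose and the median was -0.16. PSMD2 fell by 0.88 on the log2 scale (718 CPM at day 0, 390.2 at day 12). In the list of muscle ubiquitin ligases, atrophy and kelch genes 15 of 22 rose and 4 fell, 3 of them at least 2-fold (median 2.15). The list's share of counts nevertheless went down, from 0.437% ± 0.130 to 0.281% ± 0.00465, with no overlap between the days. TRIM54 rose (0.329 CPM at day 0, 52.7 at day 12, log2 ratio 7.32). FBXO32, an atrophy ligase, rose (12.6 CPM at day 0, 209 at day 12, log2 ratio 4.05). TRIM63, another atrophy ligase, rose (0.0892 CPM at day 0, 7.50 at day 12, log2 ratio 6.34). KLHL41, which stabilises nebulin, rose as well (27.5 CPM at day 0, 370.1 at day 12, log2 ratio 3.75).

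In the list for unfolded proteins and ATF4 15 of 27 tested members rose and 9 fell (median 0.38). PSAT1, a serine synthesis enzyme, was measured at 25.3, 23.2, 27.8 and 26.8 CPM at day 0 and 198, 187, 202 and 195 CPM at day 12 (log2 ratio 2.92, SE 0.09, adjusted p = 1.29e-12), with no overlap. TRIB3 rose from 4.96 ± 0.939 CPM to 38.2 ± 2.92 (log2 ratio 2.94, adjusted p = 1.04e-09). CHAC1, which degrades glutathione, rose from 2.56 ± 0.423 CPM to 25.1 ± 2.35 (log2 ratio 3.30, adjusted p = 1.62e-10). SLC7A11, a cystine transporter, rose from 50.3 ± 12.9 CPM to 275 ± 36.2 (log2 ratio 2.45, adjusted p = 7.11e-09). Members that fell included the reticulum chaperones HSP90B1 (1662 CPM at day 0, 961 at day 12, log2 ratio -0.79), PDIA4 (392 CPM at day 0, 214 at day 12, log2 ratio -0.88) and HSPA5 (1070.4 CPM at day 0, 879 at day 12, log2 ratio -0.28). Heat shock genes had 5 of 21 tested members higher (23.8%) and 7 lower (33.3%), near the 27.1% and 27.5% of all tested genes. Without replicate 2 of day 0, 8 were higher. The small heat shock proteins of muscle, HSPB3 (5.69 CPM at day 0, 63.2 at day 12, log2 ratio 3.48), HSPB7 (15.2 CPM at day 0, 74.5 at day 12, log2 ratio 2.29) and HSPB8 (20.1 CPM at day 0, 117 at day 12, log2 ratio 2.54), rose and the mitochondrial chaperone HSPD1 fell (429 CPM at day 0, 166 at day 12, log2 ratio -1.37). For lysosome and autophagy genes 16 of 31 tested members rose and 7 fell (median 0.32; 4 fell without replicate 2 of day 12). GABARAPL1 (log2 ratio 2.00) and ULK1 (log2 ratio 1.34), of autophagosome formation, rose, and BNIP3 (log2 ratio -1.91) and BNIP3L (log2 ratio -0.97), receptors for the removal of mitochondria, fell. Cholesterol synthesis genes rose in 17 of 24 and fell in 1, or 0 without replicate 2 or 3 of day 12 (median 0.49): TM7SF2 (1.91 CPM at day 0, 21.8 at day 12, log2 ratio 3.51) and HMGCS1 (60.4 CPM at day 0, 194 at day 12, log2 ratio 1.68) rose. The list's share of counts was 0.206% ± 0.00522, 0.737% ± 0.0160 and 0.323% ± 0.00703 at days 0, 1 and 12.

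Of 18 tested regulators of RNA splicing 10 rose and 5 fell (median 0.41). RBFOX1 was measured at 1.73, 0.212, 0.981 and 0.609 CPM at day 0 and 44.8, 51.5, 47.5 and 50.7 CPM at day 12 (log2 ratio 5.79, SE 0.33, adjusted p = 1.15e-09). RBM20, which splices titin (log2 ratio 2.21), RBM24 (log2 ratio 1.52), MBNL2 (log2 ratio 1.21) and the kinase gene SRPK3 (3.73 CPM at day 0, 73.8 at day 12, log2 ratio 4.30) rose, and PTBP1, a repressor of tissue-specific exons, fell from 478 ± 37.4 CPM to 198 ± 13.4 (log2 ratio -1.27, adjusted p = 1.52e-09).

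Lists of immune genes, which many cell types express, were mixed. Of 31 interferon response genes 4 rose and 5 fell (median -0.06); without replicate 1 of day 0, 10 fell. With all libraries in the fit, both shares lay below those over all tested genes. The list scattered widely at day 0, with 0.0967%, 0.245%, 0.290% and 0.181% of counts in the 4 libraries. At day 12 it held 0.217% ± 0.00904. Without replicate 3 of day 0 the median was 0.32, so the few calls do not show that the list was unchanged. IFI44 (119 CPM at day 0, 52.1 at day 12, log2 ratio -1.19) fell and USP18 (10.9 CPM at day 0, 30.2 at day 12, log2 ratio 1.47) rose. Antigen presentation genes rose in 8 of 17 and fell in 0, or 1 without replicate 1 of day 0 (median 0.23). B2M, the light chain of class I molecules, was measured at 879, 1202, 946 and 843 CPM at day 0 and 2521, 2235, 2126 and 2191 CPM at day 12 (log2 ratio 1.23, SE 0.11, adjusted p = 1.91e-07). HLA-B rose from 96.4 ± 30.6 CPM to 461 ± 44.6 (log2 ratio 2.26, adjusted p = 6.87e-08); the class I heavy chain genes are near-identical and may share reads. Of 20 chemokine and cytokine genes 5 rose (25.0%) and 8 fell (40.0%), against 27.1% and 27.5% of all tested genes. Without replicate 3 of day 12, 3 rose. IL32 was measured at 13.6, 22.0, 9.79 and 10.3 CPM at day 0 and 332, 291, 302 and 303 CPM at day 12 (log2 ratio 4.46, SE 0.21, adjusted p = 1.40e-10), and CXCL12 rose (4.05 CPM at day 0, 17.7 at day 12, log2 ratio 2.12), while CXCL8 (3.83 CPM at day 0, 0.899 at day 12, log2 ratio -2.09) and CXCL3 (3.42 CPM at day 0, 0.202 at day 12, log2 ratio -4.07) fell. Complement genes rose in 9 of 19 and fell in 4, with C1S (26.4 CPM at day 0, 243 at day 12, log2 ratio 3.21) and C1R (49.4 CPM at day 0, 231 at day 12, log2 ratio 2.22) upward and the regulator CD59 (837 CPM at day 0, 408 at day 12, log2 ratio -1.03) downward. Of 23 immediate early genes 8 rose (34.8%) and 6 fell (26.1%), close to the 27.1% and 27.5% of all tested genes. FOSL1 fell from 201 ± 13.8 CPM to 22.9 ± 1.75 (log2 ratio -3.14, adjusted p = 3.21e-12). EGR2 rose from 1.82 ± 0.260 CPM to 26.0 ± 3.53 (log2 ratio 3.83, adjusted p = 5.15e-11). Metallothioneins, small zinc-binding proteins whose genes are close paralogs and may share reads, were among the largest falls. MT2A was measured at 2267, 4992, 1789 and 1839 CPM at day 0 and 224, 141, 183 and 148 CPM at day 12 (log2 ratio -3.97, SE 0.30, adjusted p = 2.26e-08). Replicate 2 of day 0 was the highest by far, and without both libraries that stood apart the log2 ratio was -3.62. Among NRF2 targets and iron genes, 9 of 25 tested members rose (36.0%) and 10 fell (40.0%), against 27.1% and 27.5% of all tested genes. HMOX1, heme oxygenase, fell (155 CPM at day 0, 30.7 at day 12, log2 ratio -2.34). The iron exporter SLC40A1 rose (9.20 CPM at day 0, 73.8 at day 12, log2 ratio 3.00).

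**Figure D5:**
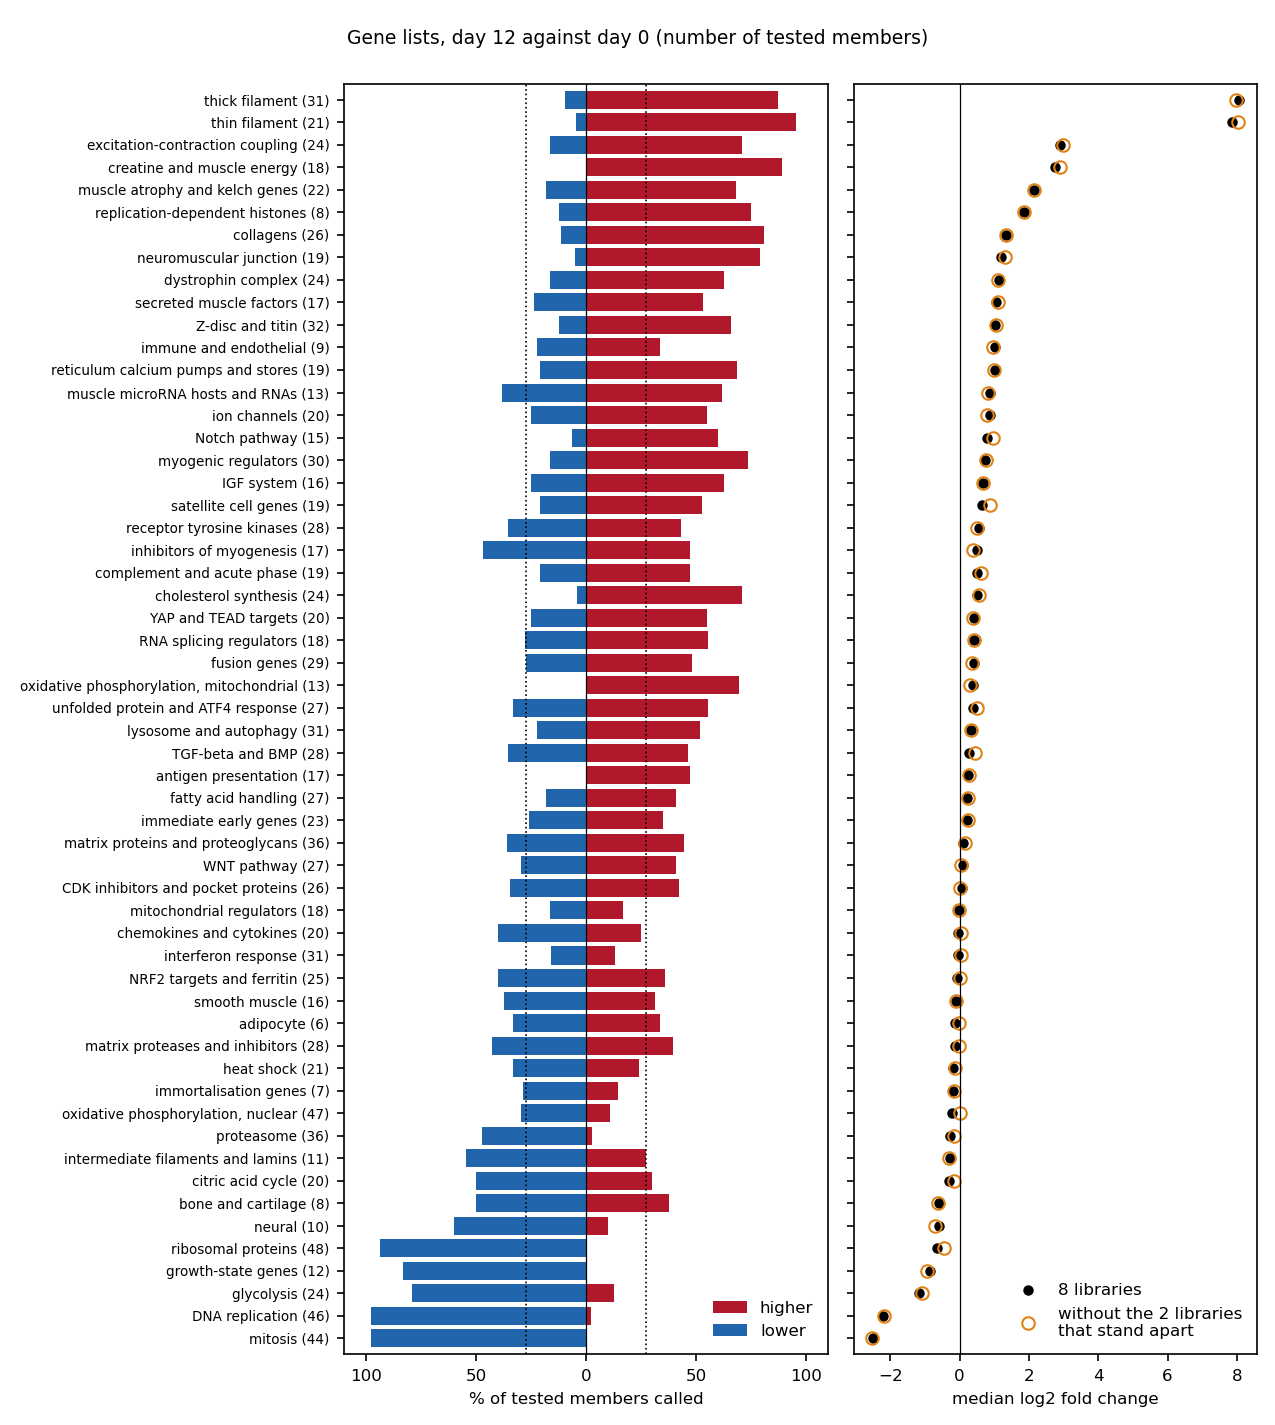
Left, the share of the tested members of each gene list shown (number in brackets) that were higher (red, to the right) or lower (blue, to the left) at day 12; dotted lines mark the shares over all tested genes, 27.1% and 27.5%. Right, the median log2 ratio of each list in all 8 libraries (black) and without the 2 libraries that stood apart (orange circles); the filament lists lie near 8 and the mitosis list at -2.50.

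Genes were ranked by the fitted log2 ratio, which depends on the prior count where day 0 had 0 counts, so the rank of such genes is not an order of measured folds. With a mean of at least 10 CPM, no overlap between the days and a call that held without the 2 libraries, the 20 highest ratios were mostly those of genes of fusion, contraction and excitation: MYOG, MYMK, UNC45B, MYH7, ACTN2, CACNA1S, MYLPF, CASQ2, MYH8, SCN4A, CACNG1, KLHL40, MRLN and MYL1. The rest were HJV, a BMP co-receptor of iron control that muscle also makes (at least 1716-fold higher, to 33.0 CPM), PKHD1, the gene of fibrocystin (at least 1695-fold, to 33.0 CPM), LRRN1, a leucine-rich repeat protein (at least 1365-fold, to 26.4 CPM), ADGRA1, an adhesion receptor (at least 1044-fold), APOL4, an apolipoprotein L (at least 839-fold, to 15.9 CPM), and the unnamed gene AL139405.1 (at least 842-fold, to 16.3 CPM). Each had 0 counts at day 0. HRC (5045-fold higher), RYR1 (4347-fold) and MYH3 (3285-fold) were not among the 20. Their measured rises lay above the bounds of HJV, PKHD1, LRRN1, ADGRA1, APOL4 and AL139405.1, and above those of SCN4A, CACNG1, MRLN and KLHL40. PKHD1 was measured at 22.7, 36.7, 37.0 and 35.4 CPM in the 4 day 12 libraries, and at day 1 its mean was 0.120 CPM.

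The 20 largest falls were of mixed kinds. NPTX2, neuronal pentraxin 2 (ENSG00000106236, chr7:98617297-98629868), had the smallest p-value of the named genes: it was measured at 1938, 2012, 1904 and 1905 CPM at day 0 and 36.8, 36.4, 34.8 and 32.2 CPM at day 12 (log2 ratio -5.79, SE 0.07, adjusted p = 3.48e-16), and was among the 20 nuclear genes with most counts per kilobase at day 0. CHST1, a sulfotransferase, fell from 11 ± 2.57 CPM to 0.0492 ± 0.0571 (log2 ratio -7.69, adjusted p = 5.69e-09). KDR, a receptor of vascular endothelial growth factor, fell from 11.9 ± 2.46 CPM to 0.316 ± 0.230 (log2 ratio -5.17, adjusted p = 4.89e-09). The endothelial marker CDH5 had 0 counts in all 8 libraries and PECAM1 a mean of 0.372 CPM at day 0. A further endothelial marker, VWF, rose from 1.06 CPM at day 0 to 3.02 at day 12. The others were ID1, ID3, HMGA2, HAS1, HAS2, the metallothioneins MT1L, MT1E and MT2A, MYF5, CDCA7, SLC35F2, ANGPTL4, NOG, INSYN2B, RAD54L, AURKB and ATOH8, with log2 ratios between -6.74 (ID1) and -3.52 (ATOH8).

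The most abundant nuclear transcripts per kilobase changed with the day. Among the highest at day 0 were TMSB10 (4259 CPM per kb), FTL (2511 CPM per kb), MT2A (2095 CPM per kb), EEF1A1 (1808 CPM per kb) and ACTB (1696 CPM per kb): thymosin, ferritin light chain, a metallothionein, an elongation factor and cytoplasmic actin. At day 12 the highest were FTL (1973), SPARC (1751), EEF1A1 (1724), TMSB10 (1532), COL1A1 (1335), ACTC1 (1267), TPM2 (1060.1) and MYLPF (1045), with 4 muscle or matrix genes, COL1A1, ACTC1, TPM2 and MYLPF, directly after the first 4. MYLPF came to this rank from 0.0346 CPM per kb. TMSB10, FTL and MT2A are short genes and their day 0 means include replicate 2; without the 2 libraries that stood apart, the log2 ratio of TMSB10 was -1.19 against -1.47 with them, and FTL, not called with them (adjusted p = 0.0549), fell by 0.16 on the log2 scale (adjusted p = 0.00780).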

How the data were processed

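The deposited table holds whole-number read counts per gene, 1 column per library, without normalization by the authors. Tools listed in the submitters' processing notes are featureCounts 2.0.6, HISAT2 2.2.1, fastp and StringTie 2.2.3, and builds are GRCh38, hg38 and mm10. Neither annotation release, strand setting nor read filters are given in the sources used here, so reads of antisense or overlapping genes cannot be told apart, and close paralogs may share reads. Coordinates are those of the deposited table and mark the whole gene. Counts of the 12 LHCN-M2 libraries were fitted with edgeR 4.0.16 (R 4.3.3): filterByExpr, TMM scaling, 1 coefficient per day and the quasi-likelihood test of day 12 against day 0, with Benjamini-Hochberg adjustment over 18214 genes and a threshold of 0.05. SE is the log2 ratio divided by the root of F. CPM uses TMM-scaled totals. Rows sharing a symbol (1745) held 0.0412% of counts and were tested by identifier. A gene with 0 counts at day 0 was compared with a floor of 3 counts over the group. With 1 to 3 counts, the ratio has a 95% Clopper-Pearson interval. Intervals and floors cover counting error only. Shares are percentages of all counts of a library. Members and the 57 gene lists were chosen with earlier results of these data known, and lists overlap in part. Genes were named from a panel of 49, from the 20 largest changes each way (mean of at least 10 CPM, no overlap, call kept without the 2 libraries), from the 4 largest called changes per list at 1 CPM or more, and from the 20 highest counts per kilobase per day. Other list members were named as examples after their values were seen. A further rule, on transcription factor families, could not be applied. Some genes and 1 list are not reported here. Pairs of libraries of a day were compared by chi-square over genes, and no pair agreed within sampling noise. The fitting code was tested on simulated data. Alternatives were DESeq2 1.42.0, other scalings and filters, the 8 libraries alone, a replicate block, and leaving out single libraries or both that stood apart. Depth was 33030258 to 44505597 counts per library over both days.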

Additional observations from a re-analysis of the deposited data

Results flagged for a closer look

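In 12 of the 100 groups of 4 libraries examined, each a gene's CPM on 1 day, the highest or lowest library lay further from the rest than Dixon's limit for 4 samples. Chance gives about 1 in 20 for normally distributed values. That rate does not apply where a single library has reads and the rest have 0, since the ratio is then always 1. Replicate 2 of day 0 was the library in 5 cases: ID1 at 403 CPM (others 206 to 227), CHRNA1 at 561 (438 to 455), CDKN2A at 463 (266 to 295), MKI67 at 164 (322 to 343) and MYH7 at 0.0265 (others 0). Replicate 1 of day 12 was the library in 4: MEF2C at 300.1 CPM (374 to 386), ATP2A1 at 4.09 (5.24 to 5.45), TERT at 535 (719.9 to 751) and FN1 at 13764 (18998 to 19485). The remaining cases, like that of MYH7, were single reads or a few reads at day 0 where the remaining libraries had 0. They were MYH8 at 0.108 CPM in replicate 1, MYH1 at 0.0258 in replicate 3 and CASQ2 at 0.0468 in replicate 4. FN1 and CDKN2A were not called with every library in the fit and were called without the 2 libraries that stood apart.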

How the results depend on the processing

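Each count of called genes stayed within 1.5 times its value in all 16 alternatives. Genes higher at day 12 ran from 4457 to 5468 and lower from 4348 to 5184; with a change of at least 2-fold, 2099 to 3001 and 1484 to 1862. Without single libraries they ran from 4561 to 5458, 4562 to 5184, 2546 to 2742 and 1672 to 1831. The labels do not state whether replicate numbers pair the libraries of days 0 and 12. Deviations of same-numbered libraries correlated at -0.315, -0.414, 0.318 and 0.156, and 1 of 4 correlated best with its own number. These values cannot decide on pairing, because the libraries that stood apart on the 2 days carry different numbers and weigh on the deviations. With the replicate block 4758 genes were higher and 4744 lower, 2628 and 1722 at 2-fold or more. Many named genes were chosen because they were called, some also without both libraries that stood apart, so their stability was partly fixed in advance. Of the 277 named genes tested, 263 kept direction and side of the threshold in every alternative run on them. The log2 ratio changed sign for 3 genes that were not called in any such fit. Leaving out both libraries that stood apart gave -0.036 for MT-ND1 and -0.0090 for RB1. Without single libraries MT-ND1 ran from -0.019 to 0.15, RB1 from -0.059 to 0.20 and MT-CO2 from -0.012 to 0.080. ATP5F1D, IFI27, MT-CO1, NDUFS7 and PNPLA3 lost their call in several alternatives, and the cause was not tested. Depth limits genes near 0 at day 0, for which only bounds or wide intervals are given.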

Other observations

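Genes of lists named after other tissues were measured too. For the smooth muscle, immune and endothelial, and adipocyte lists the shares that rose (31.2%, 33.3% and 33.3%) and fell (37.5%, 22.2% and 33.3%) lay near those over all tested genes, 27.1% and 27.5%, and each list had few tested members. In the smooth muscle list 5 of 16 tested members rose and 6 fell (median -0.10). ACTA2, smooth muscle actin, rose from 22.7 ± 1.81 CPM to 327 ± 19.4 (log2 ratio 3.85, adjusted p = 4.75e-14). CALD1, caldesmon, rose from 561 ± 46.9 CPM to 1983 ± 83.6 (log2 ratio 1.82, adjusted p = 1.29e-11). SYNPO2, an actin-binding Z-disc protein, rose from 67.5 ± 17.8 CPM to 771 ± 69.0 (log2 ratio 3.51, adjusted p = 1.23e-10). The calponin CNN2 (244 CPM at day 0, 120.4 at day 12), SMTN, smoothelin (188 CPM at day 0, 67.4 at day 12), and TPM4, a cytoplasmic tropomyosin (1539 CPM at day 0, 809.7 at day 12), fell, and the defining markers MYH11 and CNN1 stayed under 1 CPM on both days. Of 8 tested bone and cartilage genes 3 rose (37.5%) and 4 fell (50%), against 27.1% and 27.5% of all tested genes. The median was -0.59, but 0.85 when only genes with at least 1 CPM in 4 libraries were kept. COL10A1 (0.627 CPM at day 0, 22.3 at day 12) and COMP, a cartilage matrix protein (0.254 CPM at day 0, 21.1 at day 12), rose. ALPL, alkaline phosphatase (124 CPM at day 0, 14.6 at day 12), and the transcription factor RUNX2 (63.4 CPM at day 0, 32.1 at day 12) fell. Of 10 tested neural genes 1 rose (10%) and 6 fell (60%), against the same 27.1% and 27.5%. STMN2, a microtubule regulator of neurons, had 0 counts at day 0 and a mean of 4.75 CPM at day 12, and the neurofilament NEFL fell (4.89 CPM at day 0, 0.988 at day 12). In the immune and endothelial list 3 of 9 tested members rose and 2 fell, with TEK, an angiopoietin receptor (2.61 CPM at day 0, 12.2 at day 12), and CLDN5, a tight junction protein (1.39 CPM at day 0, 5.45 at day 12), upward. Of 6 tested adipocyte genes 2 rose and 2 fell, with PPARG downward (4.88 CPM at day 0, 1.52 at day 12) and GPD1, glycerol phosphate dehydrogenase, upward (0.154 CPM at day 0, 3.05 at day 12). PNPLA3 was the other that rose and lost its call in several alternatives.

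Of 13 tested noncoding RNAs, hosts of muscle microRNAs among them, 8 rose and 5 fell, or 5 rose when only genes with at least 1 CPM in 4 libraries were kept. LINCMD1, a host transcript of muscle microRNAs, rose from 0.269 ± 0.252 CPM to 37.1 ± 2.47 (log2 ratio 7.09, adjusted p = 7.26e-11). MIR1-1HG, the host of a muscle microRNA, had 0 counts at day 0 and a mean of 1.53 CPM at day 12. The nuclear RNA MALAT1 rose from 191 ± 34.1 CPM to 352 ± 19.8 (log2 ratio 0.88, adjusted p = 1.56e-05). NEAT1 fell from 702 ± 32.9 CPM to 458 ± 9.49 (log2 ratio -0.62, adjusted p = 7.64e-07). Among intermediate filaments and lamins 3 of 11 tested members rose and 6 fell. NES, nestin, rose from 1251 ± 151 CPM to 2341 ± 113 (log2 ratio 0.90, adjusted p = 2.87e-07). KRT80, a keratin, rose from 8.70 ± 1.60 CPM to 37.5 ± 3.81 (log2 ratio 2.11, adjusted p = 1.95e-09). LMNA, which encodes lamins A and C, fell from 1711 ± 510.3 CPM to 897 ± 77.1 (log2 ratio -0.93, adjusted p = 6.80e-05).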
